A study of Mus musculus with 69 samples.

Results

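The genes of 5 proteins that fill the primary granules of neutrophils, or mark the progenitors that make them, were followed through 18 lists of histone-mark peaks from mouse blood-forming cells. The 5 genes were Mpo, Elane, Prtn3, Ctsg and Ms4a3, of 21887 protein-coding genes in the annotation. A peak belonged to a gene when it lay in the gene body or within 50 kb of it on mm10, and because Prtn3 and Elane are neighbours their peaks were counted once. Peaks of all lists that overlapped or touched were merged, which gave 90 regions: 45 around Prtn3 and Elane, 26 around Mpo, 9 around Ctsg and 10 around Ms4a3.

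Primary granules are the first granules that form as a myeloid progenitor turns into a neutrophil, at the promyelocyte stage. Their cargo is made in a short burst: myeloperoxidase, which makes hypochlorous acid, and the serine proteases neutrophil elastase, proteinase 3 and cathepsin G. In blood-forming cells these genes are known targets of the factors PU.1, C/EBP, RUNX1 and MYB. H3K4me1 is found at primed and active enhancers, and H3K27ac at enhancers and promoters in use. MLL3, the product of Kmt2c, is among the enzymes that place H3K4me1.

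The cells were haematopoietic stem cells (HSCs), which renew the blood, and their progeny, haematopoietic progenitor cells (HPCs). They were profiled by ChIPmentation, in which precipitated chromatin is tagged with Tn5. The gates of the sort are not known here. The genotypes were wild type, Kmt2c f/+; Vav-Cre (called heterozygous) and Kmt2c f/f; Vav-Cre (called knockout), and Vav-Cre is active in blood-forming cells generally, so that it reached HSCs and HPCs alike. Whether the wild-type mice carried Vav-Cre or floxed alleles is not given. At 8 weeks of age, untreated mice of all 3 genotypes gave H3K4me1 lists of HSCs and of HPCs, each from 3 libraries. At 16 weeks, wild-type and knockout HSCs were profiled for both marks. Those mice had been dosed 3 times, once every 3 weeks, with PBS or with 5-fluorouracil (5FU, 150 mg/kg), which kills dividing cells. H3K27ac of HPCs came from wild-type and knockout mice aged 8 to 10 weeks that had received PBS or the inflammatory cytokine interleukin-1 (IL-1, 0.5 µg per day) for 3 days. The H3K27ac lists of HSCs and HPCs thus came from mice of different age and treatment, so that a difference between cell types in this mark cannot be told apart from those.

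Each group had 1 deposited list pooled over 3 to 6 libraries, so there were no replicate values, no error between animals and no test between conditions. All differences are between 2 lists, and a gene past 1.5-fold is counted, not called changed. A smaller share of cells with a mark and less of it in each cell cannot be told apart in sorted populations. The H3K4me1 lists covered from 44.2 to 116.0 Mb of the genome and the H3K27ac lists from 33.4 to 45.9 Mb. The largest was that of wild-type HSCs after 5FU, which drew on 6 libraries of 2 library series, against 54.0 Mb for its PBS list. Read depths are unknown.

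The promoters of the 5 genes, from 250 bases before to 50 bases after the start site, are shown because the lists differed in which of them the marks covered. The sequences are from RefSeq, build GRCm38.p6, printed 5′ to 3′ in the direction of the gene.
Mpo promoter, chr11:87793534-87793833, plus strand: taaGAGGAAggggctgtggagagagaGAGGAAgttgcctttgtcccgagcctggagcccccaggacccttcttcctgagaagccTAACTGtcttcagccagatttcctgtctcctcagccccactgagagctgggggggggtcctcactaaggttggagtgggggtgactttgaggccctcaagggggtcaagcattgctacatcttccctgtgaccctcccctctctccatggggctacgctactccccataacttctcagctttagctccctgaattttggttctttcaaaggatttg
Prtn3 promoter, chr10:79879417-79879716, plus strand: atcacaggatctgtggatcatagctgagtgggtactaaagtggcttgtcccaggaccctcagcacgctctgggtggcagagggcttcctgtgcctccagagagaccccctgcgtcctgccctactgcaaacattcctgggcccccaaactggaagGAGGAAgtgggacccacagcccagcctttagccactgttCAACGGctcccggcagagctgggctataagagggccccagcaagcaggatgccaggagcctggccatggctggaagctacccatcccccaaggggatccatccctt
Elane promoter, chr10:79886062-79886361, plus strand: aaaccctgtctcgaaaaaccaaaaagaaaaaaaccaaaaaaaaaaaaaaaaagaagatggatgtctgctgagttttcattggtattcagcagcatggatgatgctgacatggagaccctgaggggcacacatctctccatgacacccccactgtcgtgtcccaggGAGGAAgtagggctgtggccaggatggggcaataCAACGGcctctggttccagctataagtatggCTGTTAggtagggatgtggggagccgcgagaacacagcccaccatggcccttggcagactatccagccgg
Ctsg promoter, chr14:56102525-56102824, minus strand: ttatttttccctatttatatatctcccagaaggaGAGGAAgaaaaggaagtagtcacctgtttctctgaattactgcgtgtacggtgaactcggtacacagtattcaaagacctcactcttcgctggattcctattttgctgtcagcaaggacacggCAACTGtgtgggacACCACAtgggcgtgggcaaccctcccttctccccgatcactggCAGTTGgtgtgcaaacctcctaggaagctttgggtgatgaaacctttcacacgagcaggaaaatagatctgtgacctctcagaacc
Ms4a3 promoter, chr19:11640802-11641101, minus strand: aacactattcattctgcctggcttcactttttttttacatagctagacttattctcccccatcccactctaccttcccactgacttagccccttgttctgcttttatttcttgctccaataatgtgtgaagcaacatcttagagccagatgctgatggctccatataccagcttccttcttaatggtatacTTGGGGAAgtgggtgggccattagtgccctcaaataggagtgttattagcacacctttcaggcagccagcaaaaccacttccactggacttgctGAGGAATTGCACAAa
Capitals mark matches, on either strand, to GAGGAA (the core that PU.1 recognises), TGTGGT (RUNX), TTNNGNAA (C/EBP) and TAACNG or CAACNG (MYB), where N is any base. A match is only a description of the letters. The PU.1 core was in all 5 promoters, in Mpo at 2 places, and in 28.3% of 32851 promoters of the same length. A MYB core was in 4 of 5, all but Ms4a3, against 49.7% of promoters. Prtn3 and Elane had the same order of letters, GAGGAA from base −95 and then CAACGG from base −56 in Prtn3, and GAGGAA from −85 and then CAACGG from −51 in Elane, counted from the start site. The only RUNX match was in Ctsg, as ACCACA from base −79, against 16.8% of promoters. C/EBP matches were in Ms4a3 only, at 2 places, against 40.7% of promoters, and the second, from base 42, followed directly on the PU.1 core from base 36. All 4 motifs were chosen with earlier results of these data known.

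The windows of the 5 genes differed in how much of the marks they already carried in HSCs. The window of Prtn3 and Elane was among the most heavily covered of the genome in every list, Mpo and Ms4a3 had moderate coverage, and Ctsg had nearly none. Much of the coverage counted for Prtn3 and Elane lay further than 5 kb from both, among neighbouring genes. In wild-type HSCs at 8 weeks, 10159 of 32418 bases of H3K4me1 were within 5 kb of Prtn3. For Elane it was 5894 of 32757. In the same list a region over the neighbouring Ptbp1 held 7421 bases. Across the 7 HSC lists of H3K4me1, Prtn3 had from 22268 to 46625 covered bases (median 32418), Elane from 23530 to 47622 (32757), Mpo from 8779 to 15157 (13689), Ms4a3 from 3374 to 8422 (6561) and Ctsg from 0 to 566 (0). In the 3 HPC lists the ranges were 39841 to 44280 for Prtn3, 39212 to 42408 for Elane, 25977 to 27493 for Mpo, 7606 to 8608 for Ms4a3 and 3416 to 8199 for Ctsg. The HSC and HPC ranges did not overlap for Mpo and Ctsg. For the other 3 genes they overlapped only through the wild-type 5FU list, the largest of all. The next highest HSC values were 36070 for Prtn3, 37425 for Elane and 7178 for Ms4a3, below all HPC lists. How many of all genes have ranges without overlap was not counted. These sums depend on how much each list covered, so each comparison below is set against the median gene.

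**Figure D1:**
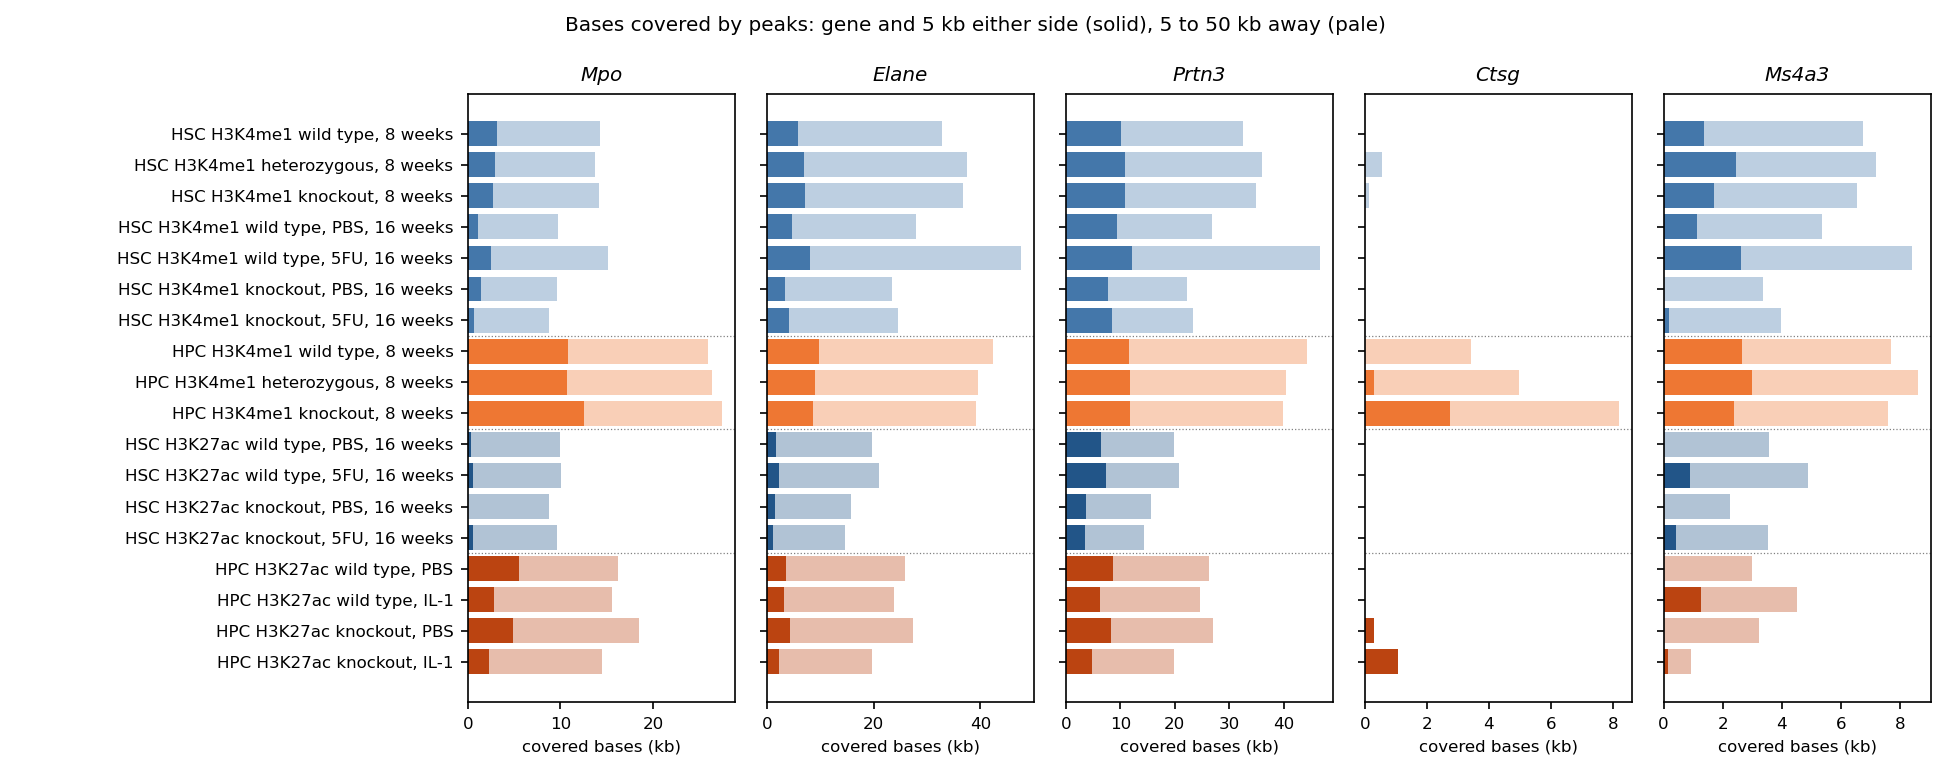
Horizontal bars give the kb covered by peaks around each gene in the 18 lists, with the gene and 5 kb either side solid and the distance from 5 to 50 kb pale; each panel has its own scale. Mpo within 5 kb has 10767, 10700 and 12527 covered bases of H3K4me1 in the 3 HPC lists and at most 3104 in the HSC lists, and Ctsg has no H3K27ac bar in any HSC list or wild-type HPC list.

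Mpo (gene 17523, chr11:87793784-87804412, plus strand) encodes myeloperoxidase, and its body carried more H3K4me1 in HPCs. Within the gene body, H3K4me1 covered 5094 bases in HPCs of the wild type, 5111 in the heterozygous and 6874 in the knockout list, and from 165 to 1132 bases in the 7 HSC lists. In the HSC lists the blocks inside Mpo ended at most 1802 bases past the start site, except that wild-type HSCs after 5FU had a block of 324 bases further in. In the HPC lists blocks reached 7334 bases or more past the start site. Of the 13943 bases in and within 5 kb of Mpo that were marked in any H3K4me1 list, 35.9% were marked in all 3 HPC lists and in no HSC list, and none in all HSC lists and no HPC list. Over the windows of all genes the first share was 2.42%. This split by cell type was chosen after the values were seen.

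The regions show where the difference lay. Over the whole window of Mpo, 18.7% of the bases in any H3K4me1 list were in all 3 HPC lists and no HSC list. Over all gene windows the share was 2.42%. In 6 of the 26 regions around Mpo, all 3 HPC lists and no HSC list had H3K4me1. They were the region from 87788520 to 87789373 upstream of the gene, those from 87796918 to 87798138 and from 87800427 to 87801158 inside it, those from 87807827 to 87808999 and from 87811411 to 87812415 in the neighbouring peroxidase gene Lpo, and that from 87776298 to 87777826 in Tspoap1. By contrast, the widest region of the window, from 87746870 to 87758006 over the microRNA gene Mir142, had a peak in all 18 lists, with 5347 to 8143 bases of H3K4me1 and 8236 to 10724 of H3K27ac. Much of the coverage counted for Mpo in HSCs thus lay in the region of Mir142, a microRNA gene active throughout the blood system.

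H3K27ac at Mpo had a similar outline. Within 5 kb of the gene it covered 361 bases in PBS and 503 in 5FU-treated wild-type HSCs, and 0 and 514 in knockout HSCs. In HPCs it covered 5554 bases in PBS and 2850 in IL-1 of the wild type, and 4896 and 2280 of the knockout. All 4 HPC lists were above all 4 HSC lists, in mice that also differed in age and treatment. The share of all genes with this order was not counted. Peaks covered the whole 300-base promoter in 3 of the 4 HPC lists and 192 bases of it in knockout HPCs after IL-1.

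**Figure D2:**
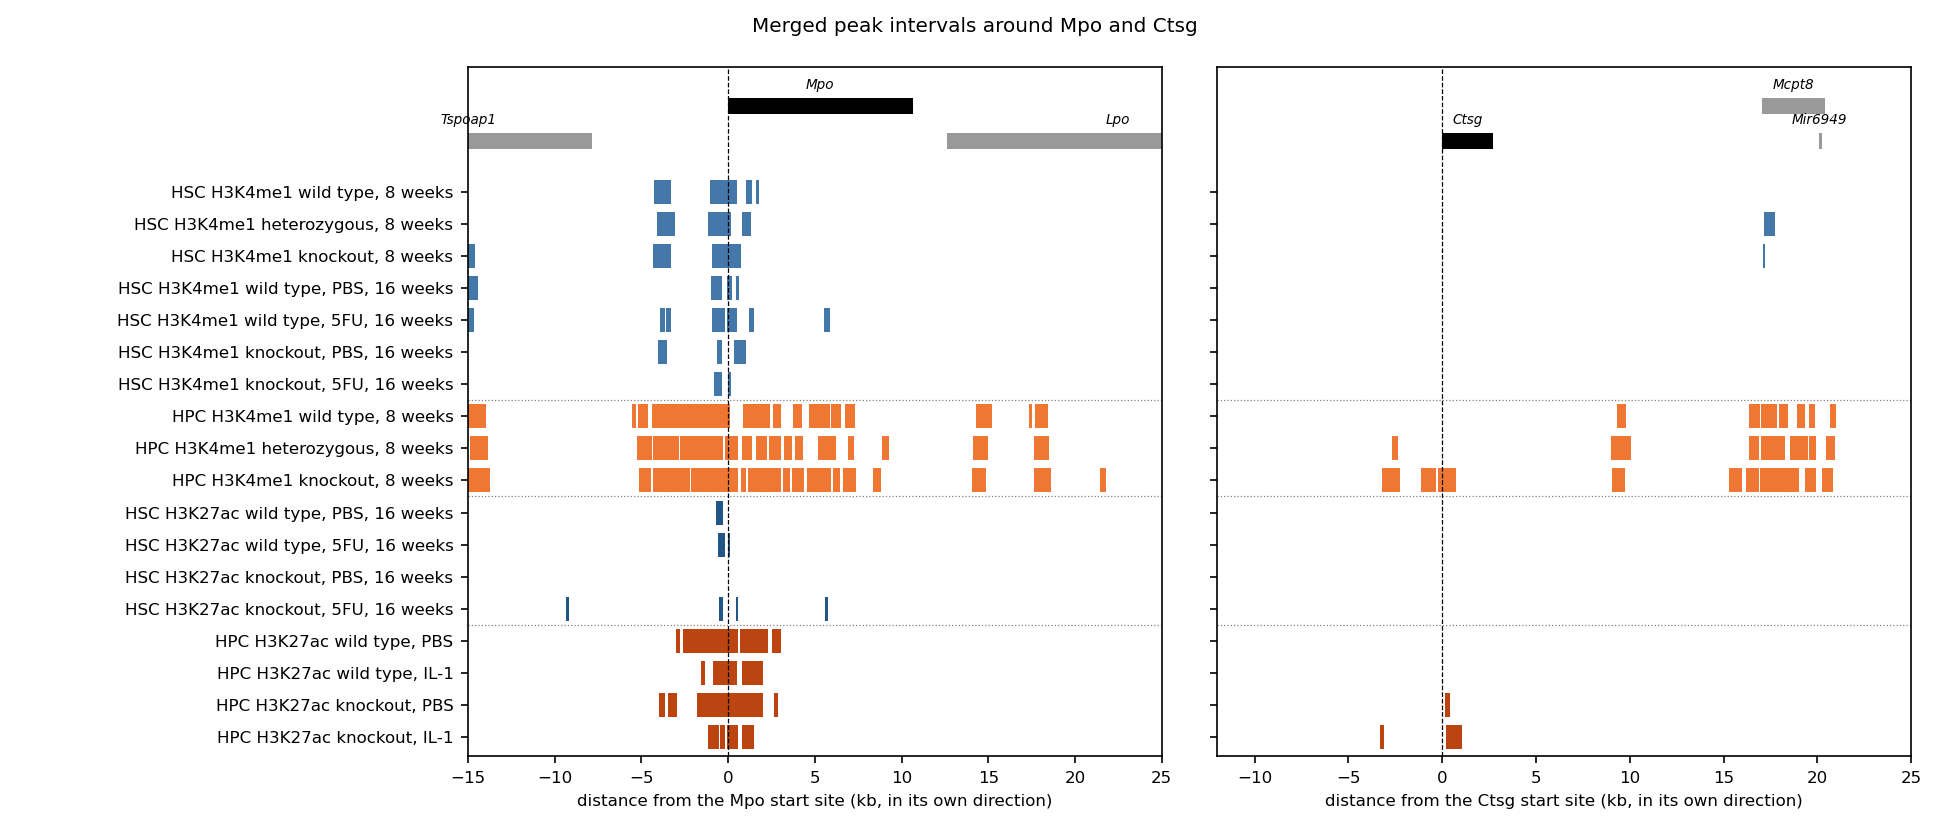
Each line is 1 list and each block a merged peak interval, drawn by distance in kb from the start site of Mpo (left) or Ctsg (right) in the direction of the gene, with genes as bars on top. H3K4me1 runs on into the Mpo body in the 3 HPC lists and stays near the start in HSCs, apart from 1 block of 324 bases in the wild-type 5FU list, and the only blocks inside the Ctsg gene belong to the 3 knockout HPC lists.

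Prtn3 (gene 19152, chr10:79879667-79883174, plus strand) encodes proteinase 3, and Elane (gene 50701, chr10:79886312-79888216, plus strand) neutrophil elastase. Prtn3 was marked in HSCs and in HPCs. Within 5 kb of Prtn3, H3K4me1 covered from 7716 to 12172 bases in HSCs and 11554, 11771 and 11856 in the wild-type, heterozygous and knockout HPC lists. These ranges overlapped only through the wild-type 5FU list (12172), the largest of all, and the next highest HSC list had 10936. How common this is over all genes was not counted. Of the bases there that were marked in any H3K4me1 list, 47.1% were marked in all 10, against 10.7% over all gene windows. The strongest H3K4me1 peak within 5 kb of Prtn3 was exceeded in −log10 p, as the authors' deposited lists give it, by 0.132% to 4.02% of the peaks of its own list. The Prtn3 promoter itself was covered over 300 of 300 bases in all 3 HPC lists and over 0 bases in both knockout HSC lists at 16 weeks, which were also among the smallest lists.

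Elane, the next gene downstream, had less. H3K4me1 covered 1656, 1749 and 1711 bases of its 1905-base body in the wild-type, heterozygous and knockout HPC lists. In HSCs it covered from 164 to 1484, so the HPC lists were all above the HSC lists. The HSC lists of this mark covered 44.2 to 116.0 Mb of the genome and the HPC lists 101.6 to 103.3 Mb. How many of all genes have such an order was not counted. H3K27ac was nearly absent from the Elane body: 187, 178, 90 and 0 bases in the 4 HSC lists and 0 in all 4 HPC lists. Over all genes, a peak in the body was present for 52.9% to 54.4% of genes in the HPC lists of that mark.

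The strongest H3K27ac peak near Prtn3 had its summit upstream of the start site in all 8 lists, from base −4566 to base −1917. Within 5 kb it covered 6408 and 7377 bases in wild-type HSCs after PBS and 5FU, and 3682 and 3523 in knockout HSCs. In HPCs it covered 8748 (PBS) and 6294 (IL-1) in the wild type and 8265 and 4860 in the knockout. The knockout was lower than the wild type in both HSC pairs and in both HPC pairs. Both HSC knockout lists were below both HSC wild-type lists, and the share of all genes with this order was not counted. The same HSC knockout lists covered 33.4 and 36.5 Mb in all, against 42.2 and 45.4 Mb in the wild type. Over the whole 50 kb windows and relative to the median gene the difference was within 1.5-fold, as given below.

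**Figure D3:**
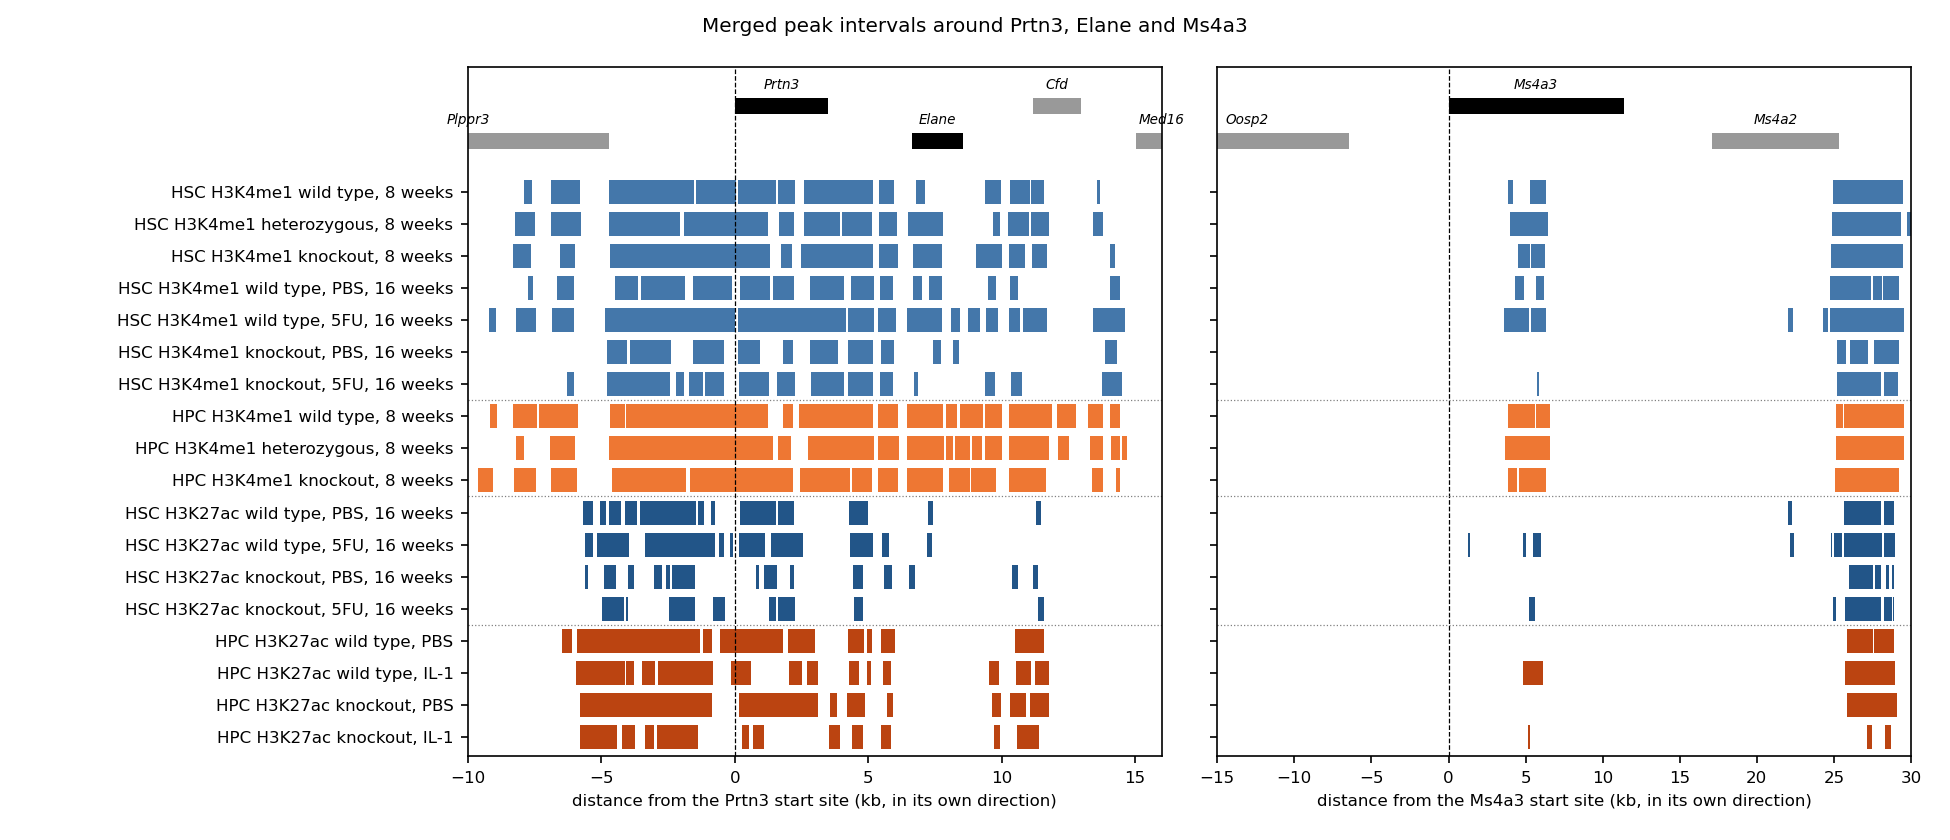
Each line is 1 list and each block a merged peak interval, drawn by distance in kb from the start site of Prtn3 (left, with Elane) or Ms4a3 (right). Prtn3 is covered in all 18 lists, the Elane body has no H3K27ac block in the 4 HPC lists, and the blocks inside Ms4a3 in H3K27ac appear in the 5FU and IL-1 lists and in none of the 4 PBS lists.

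Ctsg (gene 13035, chr14:56099885-56102574, minus strand) encodes cathepsin G and was the gene without marks in HSCs. No H3K4me1 peak lay within 50 kb in 5 of 7 HSC lists, and the other two had 566 bases (heterozygous, 8 weeks) and 136 bases (knockout, 8 weeks), over the neighbouring Mcpt8. No H3K27ac peak lay there in any of the 4 HSC lists. HPCs had 3416 bases of H3K4me1 in the wild type, 4967 in the heterozygous and 8199 in the knockout list. In 3 of the 9 regions all 3 HPC lists and no HSC list had H3K4me1. The region with most bases lay over Mcpt8, a mast-cell and basophil protease gene, from 56082646 to 56085642. It was not 1 of these 3, as it also held the 566 and 136 bases of the HSC lists. Of the bases in any H3K4me1 list in this window, 22.2% were in all 3 HPC lists and no HSC list. Over all gene windows the share was 2.42%.

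The Ctsg gene itself was marked in knockout HPCs and in no other list. H3K4me1 covered 713 bases of the body in knockout HPCs and none in wild-type or heterozygous HPCs, and within 5 kb it covered 2742 in the knockout, 309 in the heterozygous and 0 in the wild-type list. The peak in the knockout list covered 296 of the 300 bases of the promoter printed above, with its PU.1, RUNX and MYB cores. H3K27ac covered 0 bases of the body in wild-type HPCs after PBS and after IL-1, 304 in knockout HPCs after PBS and 856 in knockout HPCs after IL-1. The mice of the H3K27ac lists were injected with PBS or IL-1 and those of the H3K4me1 lists were untreated.

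The H3K4me1 peak in the Ctsg body was stronger than the median peak of its list, with 30.3% of peaks exceeding it in −log10 p. Both H3K27ac peaks in the body were below the median peak, exceeded by 63.6% of peaks after PBS and by 59.2% after IL-1. Of 9891 genes with no H3K27ac in the body in either wild-type HPC list, 1.14% had it in both knockout lists, and the reverse was found for 0.464% of 9693 genes. H3K4me1 in the body in knockout HPCs alone was found for 3.52% of 7097 genes. Ctsg was the only gene with both patterns, 0.0152% of 6580 genes without a peak in the other 4 HPC lists, and both patterns were chosen after its values were seen. With only peaks of −log10 p of 5 or more, 1 of the 3 knockout lists (H3K4me1) kept a peak in the body. With all lists of a mark limited to equal covered bases, 1 list (H3K27ac after IL-1) kept one, and with equal numbers of peaks all 3 did. None of these limits put a peak in the Ctsg body of the other 4 HPC lists.

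Ms4a3 (gene 170813, chr19:11629499-11640851, minus strand) encodes a membrane protein used as a marker of granulocyte and monocyte progenitors. Within 5 kb of the gene, its marks lay inside the body and not at the promoter. None of the 18 lists covered any of the 300 promoter bases. A region from 11634236 to 11637253, whose middle lay 5107 bases inside the gene, held nearly all marks of the body, and no exon positions were used here. Much of the coverage of the 50 kb window lay over the neighbouring Ms4a2, in a region from 11611294 to 11616105 with a peak in all 18 lists. For H3K4me1 it held 4513 of 6746 bases in wild-type HSCs at 8 weeks and all 3374 in knockout HSCs after PBS. For H3K27ac it held all 3004 bases in wild-type HPCs after PBS. H3K4me1 covered 1363, 2439 and 1703 bases of the body in wild-type, heterozygous and knockout HSCs at 8 weeks and 2666, 2981 and 2380 in HPCs. At 16 weeks it covered 1131 (PBS) and 2625 (5FU) in wild-type and 0 and 177 in knockout HSCs. The wild-type and knockout lists were thus far apart here at 16 weeks and not at 8 weeks. These lists also differed in size. At 16 weeks the wild-type lists covered 54.0 Mb (PBS) and 116.0 Mb (5FU) of the genome, and both knockout lists 44.2 Mb. At 8 weeks the wild-type list covered 86.1 Mb and the knockout list 113.5 Mb. The part of list size in this was not tested. A body marked in both wild-type lists and not in the knockout PBS list at 16 weeks was found for 10.9% of 10200 genes, and the knockout PBS list had a mark where the wild-type PBS list had none for 9.7% of 9998 genes.

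H3K27ac inside Ms4a3 separated treated from PBS lists. It covered 0 bases of the body in all 4 PBS lists. After 5FU it covered 881 bases in wild-type and 423 in knockout HSCs, and after IL-1 it covered 1260 in wild-type and 153 in knockout HPCs. Of 8551 genes with none in the 4 PBS lists, 4 (0.0468%) had it in all 4 treated lists, namely Nsl1, Siah3, Ms4a3 and Pax5, and the reverse was found for 2 of 8604 (Elfn2 and Pde4c). This pattern was chosen after the values were seen and these genes are named for it. The strongest of these peaks was above the median peak in knockout 5FU (30.5% of the list exceeded it) and wild-type IL-1 (43.3%), and below it in wild-type 5FU (51.8%) and knockout IL-1 (76.8%). With peaks of −log10 p of 5 or more, 1 of the 4 treated lists (wild-type IL-1) kept a peak, with equal covered bases 1 (knockout 5FU), and with equal numbers of peaks 3. The PBS lists had none under any of the 3 limits.

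For each pair of lists, the covered bases of a gene's window were compared as a log2 ratio after adding 1000 bases to both. From this the median ratio was subtracted, taken over genes with 1000 or more covered bases in at least 1 of the lists. This gave the relative log2 ratio, in which 0 is the median gene. A region counted as exclusive when only 1 of the 2 lists had a peak in it.

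**Figure D4:**
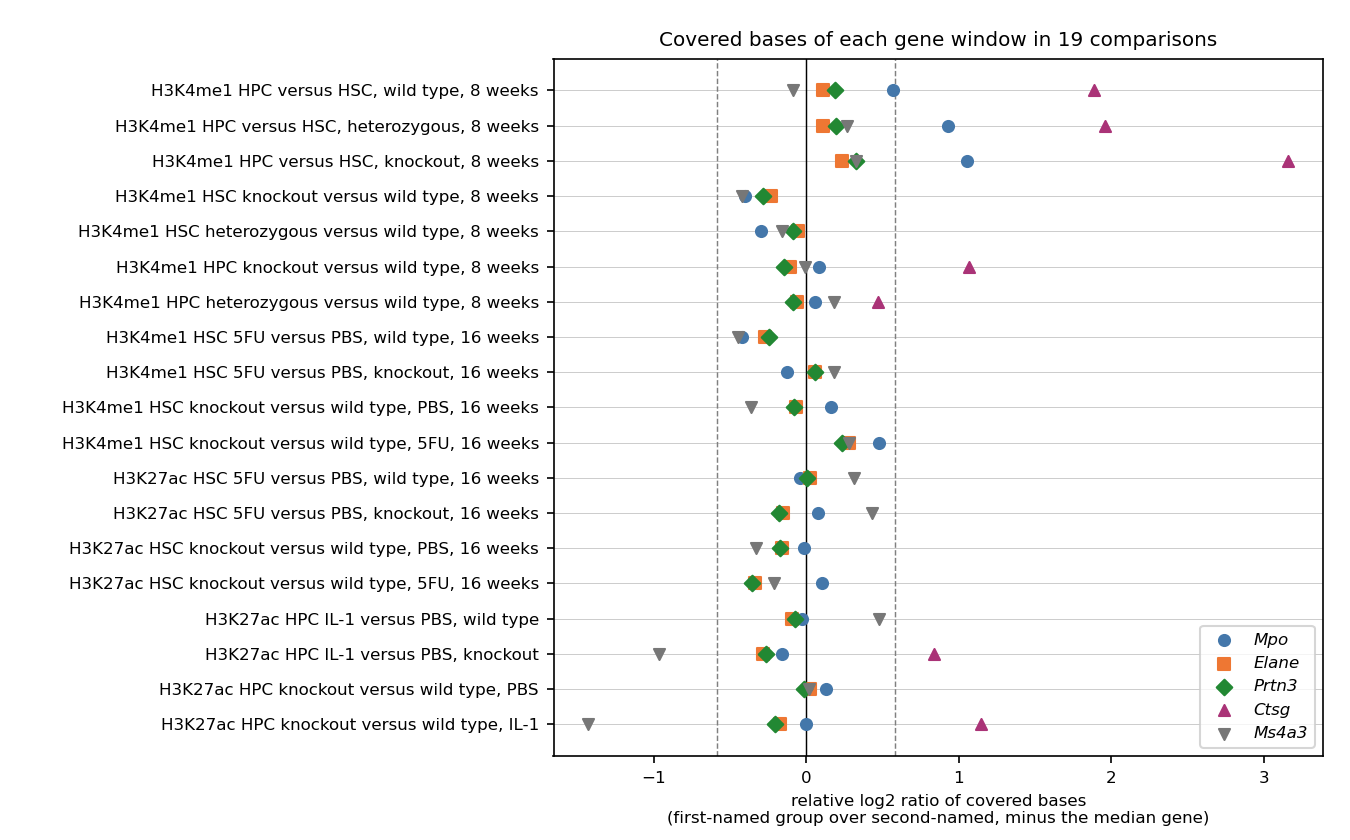
Points give the relative log2 ratio of the covered bases of each gene's window in 19 comparisons, with the median gene at 0 and dashed lines at 1.5-fold. Ctsg and Mpo lie to the right in the 3 HPC versus HSC comparisons, and Ms4a3 lies furthest to the left in knockout HPCs after IL-1. Ctsg is drawn only where 1 of the lists had at least 1000 covered bases.

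Between HSCs and HPCs at 8 weeks, H3K4me1 covered more in HPCs around Ctsg and Mpo and was close to the median gene around the others. The relative log2 ratio of Mpo was 0.57 in the wild type, just under 1.5-fold, 0.93 in the heterozygous and 1.05 in the knockout. For Ctsg it was 1.96 in the heterozygous and 3.16 in the knockout, and in the wild type 3416 bases stood against none. Elane had 0.11, 0.11 and 0.24, Prtn3 0.19, 0.19 and 0.33, and Ms4a3 −0.09, 0.27 and 0.33 in the same order. The number of genes at least 1.5-fold higher in HPCs was 1 of 5, 2 of 5 and 2 of 5, against 9.84%, 9.16% and 8.92% of all genes. None of the 5 was 1.5-fold lower, against 9.15%, 10.8% and 12.6%. Ctsg had enough coverage only through its HPC lists, so it could be counted higher or left out, but not lower. Its part in these counts can therefore not be weighed against the shares of all genes. In the wild type the 1 gene counted was Ctsg. The 3 comparisons share no list. In windows of 10 kb in place of 50 kb, which leave out the region of Mir142, the ratios of Mpo were 1.44, 1.74 and 2.12, so that the wild type passed 1.5-fold too. The wild-type ratio of Mpo also passed 1.5-fold with equal covered bases (0.69), with peaks of −log10 p of 5 or more (0.66) and with the median taken over all genes (0.67). The region over Mcpt8, which held 2106 of the 3416 bases of Ctsg in wild-type HPCs, lies outside the 10 kb windows. Ctsg in the wild type no longer passed 1.5-fold there or with 5000 added bases, and it did in the heterozygous and the knockout.

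The same direction was seen in regions. Of the regions exclusive to 1 list, 39 of 48 lay in HPCs in the wild type (81.3%, Wilson 95% interval 68.1 to 89.8, counting error only), 45 of 54 in the heterozygous (83.3%, 71.3 to 91.0) and 39 of 50 in the knockout (78.0%, 64.8 to 87.2). Over all gene windows the shares in HPCs were 52.3%, 44.8% and 38.7%. When the wild-type lists were limited to equal covered bases, the share in HPCs was 61.9% of 42 regions. Across all 86 regions with H3K4me1, 10 had it in all 3 HPC lists and no HSC list (6 around Mpo, 3 around Ctsg and 1 around Prtn3 and Elane). In all, 27 regions had it in at least 1 of the 3 HPC lists and in no HSC list, and 16 in at least 1 of the 7 HSC lists and in no HPC list. Of the 16, 12 lay around Prtn3 and Elane, 3 around Ms4a3 and 1 around Mpo. The 27 had to be absent from 7 lists and the 16 from 3. Regions were not counted in this way over all gene windows. Of the bases in any H3K4me1 list, 8.66% in the 4 windows were in all 3 HPC lists and no HSC list. Over all gene windows the share was 2.42%. For all 7 HSC lists and no HPC list the shares were 0.0369% and 0.408%.

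Genes of the same pathway were read from lists that were chosen with earlier results known. Of 10 partners of granule storage, 9 had enough coverage in the wild type, and 1 was higher and 1 lower past 1.5-fold, with a median of 0.14. Prss57, a granule serine protease, had 9097 bases in HSCs and 19215 in HPCs of the wild type (0.75), and was past 1.5-fold in the heterozygous (0.82) and the knockout (0.85) too. Ap3b1, an adaptor subunit of vesicle sorting, had 20303 and 15395 (−0.63). Of 8 genes of later granules, Mmp8, neutrophil collagenase, was past 1.5-fold in all 3 genotypes (0.91, 0.69 and 1.48). Of 8 regulators, Cebpa, whose factor drives the granulocyte programme, had 17689 bases in wild-type HSCs and 32612 in wild-type HPCs (0.59), and 0.79 and 0.60 in the heterozygous and the knockout. It was the only regulator past 1.5-fold.

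Markers of other cell types moved as well. The 9 HSC markers covered 416176 bases in their summed windows in wild-type HSCs and 254796 in wild-type HPCs, and 7 of 9 were at least 1.5-fold lower. The 5 monocyte and macrophage markers had 39920 and 70385, with 3 of 5 at least 1.5-fold higher (Ly6c2 from 0 to 1743 bases, Cx3cr1 from 3637 to 15035 and Adgre1 from 4217 to 9361). The 8 lymphoid markers had 48073 and 108462. The 7 mast cell, basophil and eosinophil markers had 21111 and 32350, with Fcer1a and Epx at 0 in both lists. That list holds Mcpt8, whose window shares its peaks with Ctsg. The 8 tissue genes silent in blood had 38619 and 50972. The part of other cells in the coverage of Mpo and Ctsg was not tested.

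Loss of Kmt2c left the granule genes of HSCs within 1.5-fold. At 8 weeks the relative log2 ratios of knockout against wild type were −0.40 for Mpo, −0.23 for Elane, −0.29 for Prtn3 and −0.42 for Ms4a3. Their covered bases were close, for instance 14167 in the knockout and 14276 in the wild type for Mpo, while the median gene was higher in the knockout by 0.39 on the log2 scale. So 4 of 4 genes with enough coverage were below the median gene, though Prtn3 and Elane share most of their windows. Of these genes 0 were past 1.5-fold, against 4.86% of all genes higher and 1.01% lower. In heterozygous HSCs the ratios ran from −0.29 (Mpo) to −0.05 (Elane), against 2.92% higher and 1.02% lower. At 16 weeks, after PBS, they ran from −0.36 (Ms4a3) to 0.16 (Mpo), against 3.84% higher and 5.48% lower. After 5FU they ran from 0.23 (Prtn3) to 0.48 (Mpo), against 3.81% higher and 10.4% lower, and here the wild-type list was the large one of 2 library series. Ctsg had no peak in any of these 4 lists at 16 weeks. In windows of 10 kb Ms4a3 was past 1.5-fold lower in the knockout after PBS (−0.93), as it was with equal covered bases (−0.61). With peaks of −log10 p of 5 or more, Mpo (0.87) and Ms4a3 (0.69) were past it upward after 5FU, and Mpo was with 100 added bases (0.64). Of the exclusive regions, the knockout held 45.8% at 8 weeks, 40.7% after PBS and 5.56% after 5FU, against 72.6%, 41.3% and 2.09% over all gene windows. The heterozygous list held 45.8%, against 64.6%. With equal covered bases the knockout shares were 4.17%, 64.0% and 100% and the heterozygous share was 20%, so that those after PBS and 5FU turned.

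In HPCs at 8 weeks, Ctsg was the gene that differed by genotype. Its relative log2 ratio was 1.06 in the knockout against the wild type (8199 and 3416 bases), and 0.47 in the heterozygous (4967 bases). The other 4 genes lay between −0.14 and 0.08 in the knockout and between −0.09 and 0.18 in the heterozygous. In the knockout, 1 of 5 genes was past 1.5-fold upward and 0 downward, against 2.04% and 2.48% of all genes. In the heterozygous none was, against 1.5% and 1.8%, although Ctsg was in windows of 10 kb (0.72). The 5 monocyte and macrophage markers had 70385 bases in the wild type and 77943 in the knockout, and the 7 mast cell, basophil and eosinophil markers 32350 and 34041. Their part in the difference at Ctsg was not tested. The knockout held 54.8% of the regions exclusive to it or the wild type, and the heterozygous 55.9%, against 55.4% and 54.3% over all gene windows. Among the mast-cell, basophil and eosinophil markers, Cpa3 was lower in the knockout (2449 and 1107 bases) and Epx had 0 and 1012.

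H3K27ac of HSCs placed no granule gene past 1.5-fold by genotype. After PBS, knockout against wild type, the ratios ran from −0.33 (Ms4a3) to −0.02 (Mpo), against 0.768% of all genes higher and 4.7% lower. All 4 of 4 were below the median gene, though Prtn3 and Elane share most of their windows. After 5FU they ran from −0.36 (Prtn3) to 0.10 (Mpo), against 0.655% higher and 5.08% lower. In windows of 10 kb, Prtn3 (−0.79) and Elane (−0.82), which share their peaks, were past 1.5-fold lower after 5FU. The knockout held 4 of 16 exclusive regions after PBS and 5 of 18 (27.8%) after 5FU, against 32.1% and 40.4% over all gene windows. With equal covered bases both turned, to 71.4% and 85.7%. Among the pathway genes, Prg2, an eosinophil granule protein gene, was past 1.5-fold lower in both (−0.84 and −0.64). Prss57 (−0.95) and Serpinb1a (−0.82), whose product inhibits granule proteases, were so after PBS. Of the regulators, Cebpe (−0.97) and Gfi1 (−0.74), both factors of granulocyte maturation, were so after 5FU.

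Treatment with 5FU also left the 4 covered genes within 1.5-fold in HSCs. For H3K4me1 in the wild type, all 4 gained bases, such as Prtn3 from 26825 to 46625, while the median gene gained 1.02 on the log2 scale, and the relative ratios ran from −0.45 (Ms4a3) to −0.24 (Prtn3). The background was 7.46% of genes higher and 2.35% lower. In the knockout they ran from −0.12 (Mpo) to 0.18 (Ms4a3), against 3.26% and 5.11%. For H3K27ac, Ms4a3 had the highest ratio of the 4 genes in both genotypes. It went from 3559 to 4879 bases in the wild type (0.31) and from 2265 to 3549 in the knockout (0.43). The other 3 genes lay between −0.04 and 0.03 in the wild type and between −0.18 and 0.08 in the knockout. The backgrounds were 1.19% higher and 0.863% lower in the wild type, and 1.33% and 1.03% in the knockout. In windows of 10 kb, Ms4a3 in the wild type (0.87) and Mpo in the knockout (0.67) were past 1.5-fold in H3K27ac. With peaks of −log10 p of 5 or more, H3K4me1 of Mpo (−0.92) and Ms4a3 (−0.99) was past it downward in the wild type. The 5FU list held 100% of 28 exclusive regions of H3K4me1 in the wild type and 48.3% in the knockout, against 95.4% and 45.8% over all gene windows. For H3K27ac it held 66.7% and 57.1%, against 60.5% and 67.6%. With equal covered bases the H3K4me1 share in the wild type turned to 5.0% and those of H3K27ac to 40.0% and 38.9%, and with peaks of −log10 p of 5 or more the H3K27ac share in the knockout was 16.7%.

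After IL-1, HPCs differed by genotype at Ms4a3. Its window had 3004 bases of H3K27ac after PBS and 4510 after IL-1 in the wild type (0.48), and 3221 and 916 in the knockout (−0.97). The loss of bases in the knockout lay in the region from 11611294 to 11616105 near Ms4a2, the neighbouring gene, which encodes a subunit of the mast-cell IgE receptor, where 3221 bases after PBS became 763 after IL-1. In the wild type that region had 3004 and 3250. Ctsg went from 304 to 1067 bases in the knockout (0.84) and had none in the wild type. Mpo, Elane and Prtn3 lay between −0.09 and −0.03 in the wild type and between −0.29 and −0.16 in the knockout. In the wild type 0 genes were past 1.5-fold, against 1.35% of all genes higher and 1.91% lower. In the knockout 1 was higher (Ctsg) and 1 lower (Ms4a3), against 1.09% and 2.06%. Ctsg had enough coverage only through its IL-1 list. With 304 bases after PBS it could be counted higher or left out, but not lower. Its count can therefore not be weighed against these shares. In windows of 10 kb, which hold the peak inside Ms4a3 but not the region near Ms4a2, the ratio of Ms4a3 was 1.18 in the wild type and 0.35 in the knockout. With 100 added bases in 50 kb windows the wild-type ratio was 0.59, just past 1.5-fold. Mpo was past 1.5-fold lower in windows of 10 kb in both genotypes, at −0.76 and −0.71. With 5000 added bases the knockout ratios of Ms4a3 (−0.37) and Ctsg (0.30) were within 1.5-fold, and with peaks of −log10 p of 5 or more that of Ctsg was too (0.49). The IL-1 list held 10 of 14 exclusive regions (71.4%) in the wild type and 3 of 10 in the knockout, against 49.0% and 42.2% over all gene windows. The wild-type share turned to 40.0% of 5 regions in windows of 10 kb, and the knockout share to 85.7% with equal covered bases.

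Between genotypes, 4 of the genes were within 1.5-fold in HPCs after PBS: their ratios of knockout to wild type lay between −0.02 and 0.13, against 1.34% of all genes higher and 3.39% lower. Ctsg had 304 bases in the knockout and none in the wild type, too few for a ratio. After IL-1, Ms4a3 was lower in the knockout (−1.43, 916 against 4510 bases), and Ctsg had 1067 bases against none in the wild type. The others lay between −0.21 and 0.00. That is 1 higher and 1 lower of 5, against 0.764% and 3.34% of all genes. With no bases in the wild type, Ctsg could be counted higher or left out, but not lower. Its count can therefore not be weighed against these shares. Ctsg was no longer past 1.5-fold with peaks of −log10 p of 5 or more or with 5000 added bases. The knockout held 81.8% of 11 exclusive regions after PBS and 37.5% of 16 after IL-1, against 37.8% and 31.1% over all gene windows. With peaks of −log10 p of 5 or more these were 50% and 8.33%, and with equal covered bases the share after IL-1 turned to 81.3%. These comparisons share lists with those of IL-1 against PBS. Monocyte and macrophage markers had 24458 bases after PBS and 31149 after IL-1 in the wild type, and 24408 and 23959 in the knockout, with Ly6c2 at 0 in both wild-type lists. Their part in the difference at Ms4a3 was not tested.

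The genes whose coverage over the 18 lists was most like the mean of the 4 granule windows, by Pearson's correlation among 16867 genes, were Aldh3b2 (0.962), Aldh3b3 (0.945), Hjv (0.917), Vamp1 (0.917) and Cep43 (0.909). Each mark was centred on its own mean and each list on its median gene. Aldh3b2 and Aldh3b3 are neighbours with overlapping windows. For Aldh3b2, H3K4me1 covered 6552 to 11844 bases in HSCs and 16827 to 18078 in HPCs. This gene was picked for its likeness over these same lists, so its difference between cell types follows from the choice. These values describe 18 pooled lists, several of the same cell type, and carry no test. Whether any of the lists share mice is not given.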

How the data were processed

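Of 69 samples, 63 fell into 18 groups with 1 pooled peak list each, and the other 6, of input chromatin, had no list that was analysed here. The submitters' processing notes name Novoalign, MACS2 and the build mm10 (GRCm38), without versions. How the lists were filtered and libraries pooled is not known here. The deposited lists give each peak's position, its fold enrichment (a linear ratio) and its −log10 p by the authors' peak caller, which served to rank or filter peaks within a list.

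Covered bases were summed per list in the gene body, within 5 kb and within 50 kb, with Python 3.11.15, numpy 2.4.6 and pandas 2.3.3. Ratios used 1000 added bases. Intervals are Wilson 95% intervals. Gene positions and promoters came from RefSeq (GRCm38.p6). The computation was tested on simulated intervals. With 1 list per group no test was made. The 5 genes were always named, with the 5 genes most like them and list genes past 1.5-fold, up to 4 a list. The members, gene lists and comparisons were chosen with earlier results of these data known. Alternatives were windows of 10 and 100 kb, 100 and 5000 added bases, no coverage filter, a −log10 p of 5 or more, lists of equal peak number or equal covered bases, and a 50% overlap.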

Additional observations from a re-analysis of the deposited data

How the results depend on the processing

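No paired analysis was possible because each group had 1 pooled list, and for the same reason no replicate could be left out. The values below are the percent of exclusive regions in the first-named group. The cause of a moved value was not tested where none is named. In windows of 10 kb, HPC versus HSC gave 100%, 100% and 95% in the wild type, heterozygous and knockout. The same windows gave 0.0% for heterozygous versus wild-type HSCs at 8 weeks, 20% and 0.0% for knockout versus wild-type H3K4me1 after PBS and 5FU, 100% and 87.5% for 5FU versus PBS in wild-type H3K4me1 and H3K27ac, and 40.0% for IL-1 versus PBS in the wild type.

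With equal covered bases, 5FU versus PBS in wild-type H3K4me1 turned from 100% to 5.0%, knockout versus wild type in H3K4me1 after 5FU from 5.56% to 100%, and knockout versus wild type in H3K27ac after PBS from 25% to 71.4%. Equal covered bases remove the weak peaks of the larger list. The same limit gave 61.9% for HPC versus HSC in the wild type, 4.17% and 20% for knockout and heterozygous versus wild-type HSCs at 8 weeks, 64.0% for knockout versus wild-type H3K4me1 after PBS, 40.0% for 5FU versus PBS in wild-type H3K27ac, and 85.7% for knockout versus wild type in H3K27ac after 5FU. It gave 85.7% for IL-1 versus PBS in the knockout and 81.3% for knockout versus wild type after IL-1. Equal numbers of peaks gave 82.4% for 5FU versus PBS in wild-type H3K4me1 and 25% for knockout versus wild type in H3K4me1 after 5FU.

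Peaks of −log10 p of 5 or more gave 100% and 0.0% for those 2 comparisons, 16.7% for 5FU versus PBS in knockout H3K27ac, and 50% and 8.33% for knockout versus wild-type HPCs after PBS and IL-1. Windows of 100 kb and a 50% overlap gave 100% for 5FU versus PBS in wild-type H3K4me1. Of the ratios of single genes, 1 changed direction: Ms4a3 after IL-1 in the knockout, which was −0.97 in 50 kb windows and 0.35 in 10 kb windows, which leave out the region near Ms4a2. Another 29 moved past the set limit and 650 values did not. Under limits added after the values were seen, a peak in the Ctsg body was in 1 of 3 knockout HPC lists with a −log10 p of 5 or more and in 1 with equal covered bases, and a peak in the Ms4a3 body in 1 of 4 treated lists under each. Read depths are unknown, so a gene without a peak may be marked below the threshold of its list.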
